A study of Mus musculus with 134 samples.

Results

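Mitochondrial respiration rests on 5 protein complexes of the inner membrane. Complex I takes electrons from NADH, complex II takes them from succinate, complex III passes them to cytochrome c, complex IV hands them to oxygen, and complex V is the ATP synthase that the resulting proton gradient drives. Most of their subunits are encoded in the nucleus, translated in the cytosol and imported, while a small core is encoded by mitochondrial DNA. The genes studied here are the nuclear-encoded subunits, chosen by symbol: names that begin with Ndufa, Ndufb, Ndufc, Ndufs or Ndufv and a digit, the Sdh genes of complex II, and names that begin with Uqcr, Cox4 to Cox8 or Atp5. This rule found 88 of the 25209 genes in the expression tables, of which 40 belong by symbol to complex I, 4 to complex II, 8 to complex III, 19 to complex IV and 17 to complex V. The symbol decides the group, so Ndufa4 is counted with complex I although its product is now placed in complex IV, and Cox7a2l, a factor of respiratory supercomplexes, is counted with complex IV. Mitochondrially encoded genes were not analysed here, since the authors aligned to a genome without the mitochondrial chromosome.

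SET-seq is a co-assay that reads a histone mark from the nuclei and mRNA from the cytoplasm of the same cells, and all libraries here came from mouse ES-E14TG2a embryonic stem cells grown in serum with LIF. The expression data were 54 bulk libraries in 27 conditions of 2 libraries each. In 28 in vitro libraries, cDNA/mRNA hybrids made from purified total RNA were tagmented by the transposase Tn5, with 3 amounts of Tn5, 3 amounts of RNA, or 16 °C and 37 °C for 5, 10, 15 or 30 min. In 20 cell-based libraries the RNA was the cytoplasmic supernatant of 10 to 10000 cells, either alone or in co-assays of H3K27me3 or H3K4me3. Another 4 libraries came from 2 CRISPR/Cas9 clones lacking Aebp2, a cofactor of the Polycomb repressive complex PRC2; each clone, KO1 and KO2, was made with its own guide RNA and is a single clone. The last 2 libraries were made from poly-A RNA by fragmentation, random priming and ligation. In addition, 752 single cells were read after 12 h with beads coated with Wnt3a, as daughters that sat next to the bead (proximal) or away from it (distal), in 10 experiments that also read H3K27me3 and 6 that also read H3K4me3.

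The summed level of 8 embryonic stem cell markers was 3505 to 5543 CPM (counts scaled to a common library total) in the groups compared below, and that of 6 fibroblast markers, which feeder cells would bring, was at most 15.7 CPM. Bulk libraries held 235040 to 21520982 counts, of which the 45S pre-ribosomal RNA Rn45s took 1.54% to 84.6%; Rn45s was left out of all CPM values and tests. The study describes the libraries of the temperature series as biologically independent and gives 2 independent experiments for each Aebp2 clone. For the other conditions no source used here says that the 2 libraries came from separate cultures, so p-values there measure only the spread between these libraries, which may be technical. In bulk samples, fewer cells of a type and less RNA per cell cannot be told apart.

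Per kilobase of exon, the ATP synthase led the set. In the ligation-based libraries, where fragmentation before priming spreads reads along the transcript, Atp5b, the catalytic beta subunit of complex V, had the highest level, at 1307 and 1323 reads per kilobase of exon, scaled to library size (RPKM). Cox4i1, the common isoform of a complex IV subunit, followed at 655 and 682 RPKM, with Atp5a1, the alpha subunit of complex V, close to it at 659 and 671 RPKM; the ranges of these 2 genes overlapped. Cox8a, Cox6b1, Cox6a1 and Cox5a, small structural subunits of complex IV, had mean levels of 395, 374, 350 and 273 RPKM. Ndufa4 had 292, Uqcrc1, a core subunit of complex III, had 291, and Atp5g3, which encodes the membrane ring of the ATP synthase, had 275 RPKM. In the cytoplasmic RNA of 10000 cells the order was another one: Cox4i1 ranked first of the set, with a mean of 3153 RPKM, and Atp5b ranked 5, with 1929 RPKM.

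In families with tissue isoforms the ubiquitous form had the higher level, though other forms were clearly read in some. In the 28 in vitro libraries Cox4i1 had a median of 1621 RPKM (lowest 947) while Cox4i2, its lung-type and oxygen-sensitive isoform, had 24.7 RPKM (highest 59.5). Cox6a1, the non-muscle form, had a median of 1203 RPKM there, whereas Cox6a2, the heart and muscle form, collected 4 counts over all 54 libraries. Likewise Cox8a had a median of 1353 RPKM, against 17 counts in all for the muscle form Cox8b and 86 for Cox8c. Cox7a2 had a median of 158 RPKM in vitro and Cox7a1, the muscle form, 47.6, with single libraries between 18.1 and 558. Cox6b1 had a median of 1130 RPKM in vitro and Cox6b2 183, with 31605 counts of Cox6b2 over all 54 libraries. Ndufa4 had 554 RPKM in vitro and its paralog Ndufa4l2 164. In the cell-based libraries these 2 genes had medians of 1372 and 3.74 RPKM. Among the 3 genes for the identical mature ring subunit of complex V, Atp5g3 had a median of 1620 RPKM in the 20 cell-based libraries, Atp5g1 1037 and Atp5g2 5.89. In the ligation-based libraries the means of Atp5g3, Atp5g1 and Atp5g2 were 275, 36.7 and 1.16 RPKM. Of the succinate dehydrogenase genes, Sdhb, the iron-sulfur subunit, had the highest median in the 20 cell-based libraries, 480 RPKM. It was ahead of the membrane anchor Sdhd with 249, Sdhc with 127 and the flavoprotein Sdha with 106. The order was another one in the ligation-based libraries, with means of 119 RPKM for Sdha, 113 for Sdhb, 90.6 for Sdhd and 78.8 for Sdhc.

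Some members could hardly be measured. Over all bulk libraries Cox7b2 had 112 counts, Cox7c-ps1 64, Ndufa11b 229, Ndufb4c 586 and Ndufs5, a subunit of complex I, 1. The exons of Ndufs5 share 95.1% of their bases with those of the annotated copy Ndufs5-ps, which had 25132 counts, and reads that overlap more than 1 gene were not counted, so the level of Ndufs5 itself cannot be read here. In all, 14 members share exon bases with another gene, with Ndufa13 at 29.6% and Atp5j, which lies against Gabpa, at 13.6% next after that pair; counting ignored strand.

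**Figure D1:**
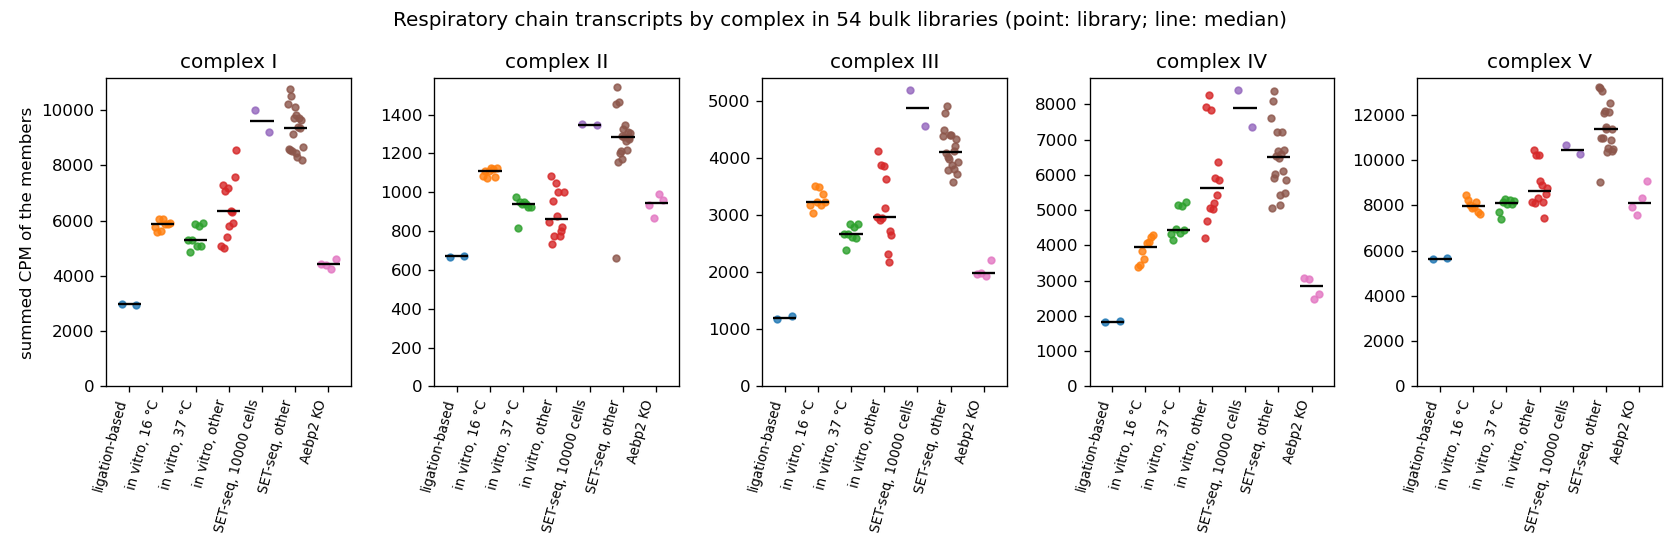
Summed CPM of the members of each complex (vertical axis, from 0) in each of the 54 bulk libraries, by kind of library; points are libraries and lines are medians. The 2 ligation-based libraries are lowest in complexes I, III, IV and V, the cell-based SET-seq libraries are mostly highest, and the 4 Aebp2 KO libraries lie below the cell-based libraries in complexes I, III and IV.

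As a share of the library, the same complexes took different amounts in each kind of library. Complex I members summed to 2952 and 2988 CPM in the ligation-based libraries, to a median of 5869 CPM (4871 to 8542) in the 28 in vitro libraries and to 9359 CPM (8207 to 10761) in the 20 cell-based libraries. Complex V, with fewer genes, took 5628 and 5667 CPM in the ligation-based libraries, a median of 8166 in vitro and 11165 in cell-based libraries. Complex IV ranged most widely in vitro, from 3400 to 8280 CPM. Within the Tn5 titration that range followed the library number: replicate 1 of the 3 Tn5 amounts had 4220 to 5068 CPM of complex IV and replicate 2 had 7853 to 8280, with 3710685 to 7739123 counts in the former and 15725615 to 17647365 in the latter. The part of depth in this gap was not tested.

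Promoters of respiratory genes are known for sites of the factors NRF1, GABPA and YY1, so the sequence around the start is shown for 1 abundant member of each complex. RefSeq promoter sequences (build GRCm38.p6, 250 bases before to 50 after the start) were matched by symbol for 68 of the 88 members. On either strand, the NRF1 letters GCGCANGCG occurred in 20 of these 68 promoters (29.4%), against 7.034% of all 27025 genes with a promoter and 15.96% of the 9441 that were also tested between temperatures. The GABPA letters CCGGAAG occurred in 17 members (25.0%), against 9.93% of all genes and 21.0% of the genes tested, and the YY1 letters AAGATGG in 11 members (16.2%), against 7.28% and 8.71%. By complex, at least 1 of these motifs was found in 18 of 32 promoters of complex I, 3 of 3 of complex II, 3 of 5 of complex III, 4 of 13 of complex IV and 12 of 15 of complex V. That makes 40 of the 68 members (58.82%), against 21.38% of all genes and 38.89% of the genes tested; complex IV, with 30.77%, lay below the last of these. These are matches of letters and no evidence of binding. Shown for each complex is the promoter of the most abundant of its members among these 68 that held a match, with the match in capitals. The genes are Ndufb7 (chr8:83566508-83566807, + strand), Sdha (chr13:74350191-74350490, - strand), Uqcrc1 (chr9:108936398-108936697, + strand), Cox8a (chr19:7217567-7217866, - strand) and Atp5g3 (chr2:73911277-73911576, - strand). The GABPA letters stand once in Ndufb7 and, as their reverse complement, 2 times in Cox8a. The NRF1 letters stand 3 times each in Sdha and in Uqcrc1, where 2 matches on opposite strands overlap, and once, as the reverse complement, in Atp5g3.
Ndufb7: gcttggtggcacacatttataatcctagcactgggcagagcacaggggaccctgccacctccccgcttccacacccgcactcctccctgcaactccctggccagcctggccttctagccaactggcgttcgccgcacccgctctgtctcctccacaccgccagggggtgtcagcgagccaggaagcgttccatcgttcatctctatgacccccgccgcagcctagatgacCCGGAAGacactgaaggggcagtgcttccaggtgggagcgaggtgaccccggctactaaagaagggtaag
Sdha: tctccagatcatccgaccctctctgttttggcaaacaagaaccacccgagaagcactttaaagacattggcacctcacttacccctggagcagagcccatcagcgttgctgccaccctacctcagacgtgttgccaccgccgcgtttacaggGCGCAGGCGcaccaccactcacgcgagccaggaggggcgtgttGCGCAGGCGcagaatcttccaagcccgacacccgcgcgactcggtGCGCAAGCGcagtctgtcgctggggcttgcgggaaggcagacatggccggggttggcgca
Uqcrc1: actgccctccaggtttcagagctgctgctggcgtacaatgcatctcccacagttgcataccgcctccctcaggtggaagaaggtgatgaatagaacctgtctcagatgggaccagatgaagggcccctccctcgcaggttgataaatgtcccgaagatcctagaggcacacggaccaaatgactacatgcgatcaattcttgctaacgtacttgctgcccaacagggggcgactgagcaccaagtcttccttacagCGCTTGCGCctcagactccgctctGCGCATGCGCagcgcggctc
Cox8a: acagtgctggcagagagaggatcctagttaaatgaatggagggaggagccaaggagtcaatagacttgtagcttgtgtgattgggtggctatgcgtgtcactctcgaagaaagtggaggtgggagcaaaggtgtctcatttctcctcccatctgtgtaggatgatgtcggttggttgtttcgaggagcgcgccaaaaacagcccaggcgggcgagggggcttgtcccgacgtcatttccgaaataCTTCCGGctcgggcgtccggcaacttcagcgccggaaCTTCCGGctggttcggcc
Atp5g3: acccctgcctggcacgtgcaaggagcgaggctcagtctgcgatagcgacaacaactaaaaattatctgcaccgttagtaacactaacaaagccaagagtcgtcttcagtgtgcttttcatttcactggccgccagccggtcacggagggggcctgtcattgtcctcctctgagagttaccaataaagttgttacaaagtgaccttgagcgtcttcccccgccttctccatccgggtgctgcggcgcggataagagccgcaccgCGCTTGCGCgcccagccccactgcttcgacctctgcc

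The first comparison asked whether the temperature of tagmentation changes what is read from the same kind of RNA. At 37 °C against 16 °C, with 8 libraries each, single subunits moved in both directions within every complex. Of 80 members tested, 34 were higher at 37 °C (42.5%, against 32.0% of the 11788 genes tested) and 21 were lower (26.2%, against 31.4% of all genes), by edgeR's quasi-likelihood test at an adjusted p below 0.05. The median log2 fold change of the members was 0.08, with -0.00 over all genes. The study's own threshold for calls, an unadjusted p below 0.05 and a change above 1 on the log2 scale, left 9 members higher (5.34% of all genes) and 1 lower, Uqcr11 (3.53% of all genes).

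Complex I split evenly, with 12 of its 37 tested members higher and 13 lower. Ndufb4, an accessory membrane-arm subunit, was the extreme case: it lay between 1.00 and 2.61 CPM (median 1.56) at 16 °C and between 4.39 and 15.7 CPM (median 11.8) at 37 °C. Its level was 6.42-fold higher at 37 °C (log2 2.68, SE 0.22, adjusted p = 2.51e-11). The groups did not overlap, as the rule for named genes requires, and at these low counts few reads stand behind the change. Ndufa5, an accessory subunit of the matrix arm, rose from 9.57 to 14.1 CPM at 16 °C to 36.2 to 62.3 CPM at 37 °C (log2 1.88, SE 0.11, adjusted p = 1.01e-14). Ndufc2 rose by 1.39 (SE 0.09). In the other direction Ndufa11, a membrane-arm subunit, had 180 to 236 CPM at 16 °C and 101 to 133 CPM at 37 °C (log2 -0.72, SE 0.07, adjusted p = 8.71e-10), and Ndufs7, a core iron-sulfur subunit, had 357 to 507 and 216 to 309 CPM (log2 -0.65, SE 0.08).

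The 4 genes of complex II are few but each passed the test. Sdha fell by 0.47 on the log2 scale, Sdhb and Sdhc each fell by 0.24, and Sdhd rose by 0.15. The call of Sdhd was lost in 9 alternatives, namely without a filter on low counts, without any of 7 single libraries and with the 5 min libraries alone, where Sdhb and Sdhc lost theirs too. Their summed level was 1102 ± 21.1 CPM (SD, n = 8) at 16 °C and 927 ± 47.2 CPM at 37 °C, a ratio of 0.841, without overlap. Complex III held the largest fall of the whole set: Uqcr11, a small subunit, lay between 402 and 533 CPM (median 467) at 16 °C and between 102 and 195 CPM (median 151) at 37 °C, which is 2.98-fold lower (log2 -1.57, SE 0.09, adjusted p = 1.69e-14). Uqcrc1 also fell, by 0.51, while Uqcrb, Uqcrq, Uqcrc2 and Uqcrfs1 rose by 0.85, 0.55, 0.50 and 0.28. Because the abundant Uqcrc1 and Uqcr11 fell, the summed level of complex III dropped from 3280 ± 167 to 2678 ± 152 CPM, a ratio of 0.816, although more of its members rose than fell.

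Complex IV was mostly higher at 37 °C, with 9 of 14 members up and only Cox5b down (log2 -0.50). Cox6c and Cox5a rose by 1.38 and 0.98. The summed level of complex IV was 3876 ± 355 CPM at 16 °C and 4652 ± 439 CPM at 37 °C, a ratio of 1.20, but the libraries overlapped when all times were pooled. At 16 °C it rose with time, from 3400 and 3439 CPM at 5 min to 4224 and 4308 CPM at 30 min, so that SD includes time. Within each time, both libraries at 37 °C lay above both at 16 °C. At 37 °C for 10, 15 and 30 min, replicate 1 had 4350 to 4453 CPM of complex IV and replicate 2 had 5132 to 5238 CPM, while at 5 min replicate 1 had 4324 and replicate 2 4141 CPM. In complex V 8 of 17 members rose and 2 fell. Atp5k, the e subunit, had 22.1 to 39.6 CPM at 16 °C and 72.5 to 123 CPM at 37 °C (log2 1.78, SE 0.10, adjusted p = 1.33e-14), and Atp5e, the epsilon subunit of the rotor, had 37.3 to 57.9 and 95.5 to 142 CPM (log2 1.39, SE 0.07). Atp5j, coupling factor 6, fell by 0.89 (SE 0.10) from a wide range of 266 to 712 CPM to 196 to 220 CPM, and Atp5g1 fell by 0.55. The summed level of complex V stayed within the spread, with 7997 ± 283 CPM at 16 °C and 8009 ± 301 CPM at 37 °C.

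**Figure D2:**
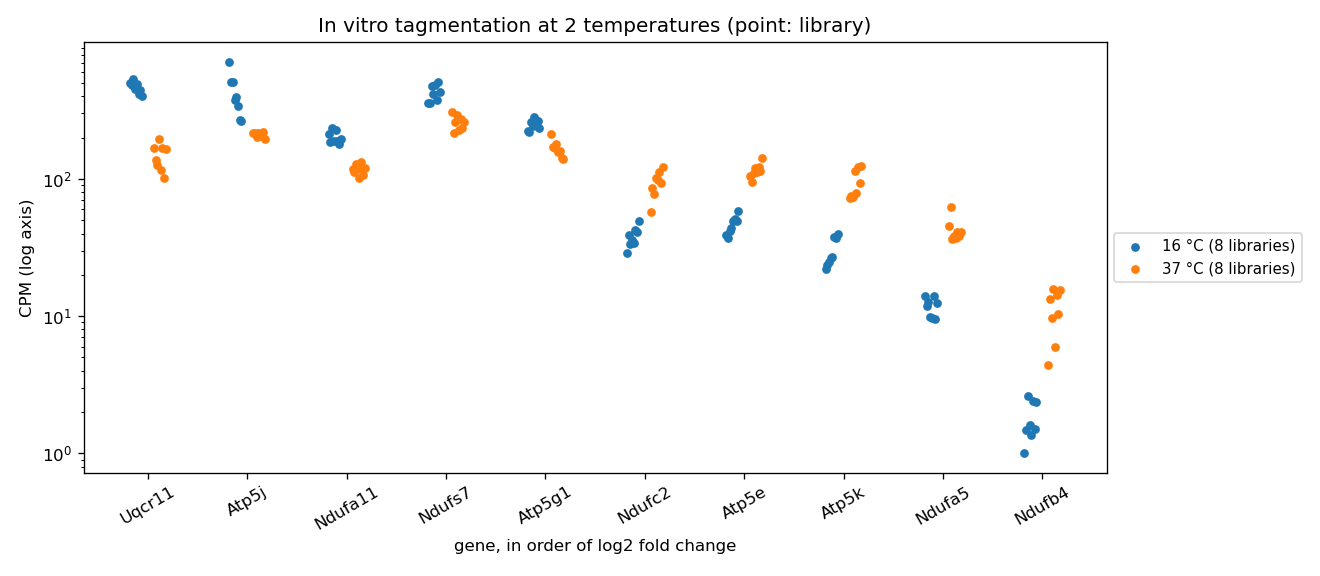
CPM (log axis) of the 10 members that the rule names between temperatures, in order of their log2 fold change, in the 8 libraries at 16 °C and the 8 at 37 °C. The rule takes only genes whose groups do not overlap, so no point of one temperature reaches those of the other. Uqcr11 falls 2.98-fold and Ndufb4 rises 6.42-fold.

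Base composition went along with the direction. Over the 80 members tested, the rank correlation of the log2 fold change with the GC content of the exons was -0.42, and it was -0.56 over all 11788 genes; both are descriptions across genes of the same libraries. The members that were higher at 37 °C had a median GC content of 49.8% and those that were lower had 55.3%. The share of Rn45s also differed, with 11.8% to 25.1% at 16 °C and 33.0% to 40.7% at 37 °C. The 4 markers of primed epiblast summed to 91.7 to 117 CPM at 16 °C and to 65.6 to 81.1 CPM at 37 °C. Among them Fgf5 was at 0 in all libraries at 16 °C and in those of 5, 10 and 30 min at 37 °C. The part of GC content, of the Rn45s share and of these markers in the result was not tested. The coding sequences of 3 members that moved between temperatures are shown (GENCODE M1, NCBIM37, which is mm9), with runs of at least 6 G or C letters in capitals. Over all exons, the measure used above, Uqcr11 had 59.2% G and C, Atp5k 53.1% and Atp5e 54.6%. Atp5k and Atp5e, which rose, thus lay above the median of the members tested, 52.4%, and are not examples of low GC content. Uqcr11, which fell, is coded in 2 exons at chr10:79866911-79869490 (- strand) and its 171 bases are 60.2% G and C; Atp5k (4 coding exons, chr5:108862331-108863380, - strand) and Atp5e (2 coding exons, chr2:174288004-174289497, - strand), which rose, have 53.7% and 51.6%.
Uqcr11: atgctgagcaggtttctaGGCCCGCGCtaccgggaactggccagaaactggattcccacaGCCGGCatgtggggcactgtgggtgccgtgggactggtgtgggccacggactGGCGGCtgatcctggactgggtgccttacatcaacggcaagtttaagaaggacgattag
Atp5k: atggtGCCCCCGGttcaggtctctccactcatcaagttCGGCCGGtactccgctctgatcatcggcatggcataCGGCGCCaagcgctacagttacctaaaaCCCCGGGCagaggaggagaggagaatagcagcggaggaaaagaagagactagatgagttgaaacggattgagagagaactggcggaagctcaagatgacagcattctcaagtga
Atp5e: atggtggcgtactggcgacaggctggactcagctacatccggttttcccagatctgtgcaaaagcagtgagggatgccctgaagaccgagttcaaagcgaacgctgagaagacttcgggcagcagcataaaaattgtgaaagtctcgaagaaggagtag
Atp5k nevertheless holds 4 such runs, 1 more than Uqcr11, so in these 3 sequences the runs do not follow the direction. Of other gene groups, 49 of 79 ribosomal protein genes were higher at 37 °C and 11 lower, whereas 12 of 15 glycolytic genes were lower and 1 was higher. Of all genes tested, 32.0% were higher and 31.4% lower. The 41 assembly factors of the respiratory complexes, chaperones that are not part of the finished complexes, split into 14 higher and 14 lower. Of 36 proteasome subunits 12 were higher and 14 lower. Both groups lay near the shares of all genes.

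The next comparison set the cytoplasmic RNA of 10000 cells (2 libraries) against total RNA (4 in vitro libraries, made from 300 ng RNA or at 37 °C for 5 min). Respiratory chain transcripts were higher in the cytoplasmic libraries, in all 5 complexes. Of 81 members tested, 56 were higher (69.1%, against 31.8% of the 12631 genes tested) and 5 were lower (6.17%, against 24.4%). The median log2 fold change of the members was 0.85, while that of all genes was 0.15; the latter fell to 0.02 when Rn45s was kept in the library size, with 50 members then higher and 7 lower. Under the study's threshold 27 members were higher (20.7% of all genes) and 2 were lower (15.1%). The cells and the purified RNA came from separate preparations, so fraction, preparation and protocol cannot be told apart. Summed levels of 4 neural markers were 150 to 153 CPM in the cytoplasmic libraries and 38.4 to 58.2 CPM in total RNA, where Pax6 was at 0 in all 4 libraries. Those of the 8 embryonic stem cell markers were 3514 to 3536 against 4286 to 4663 CPM. The ligation-based libraries had 162 to 165 CPM of the neural markers. The part of these differences in the result was not tested.

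The summed level of complex I was 9203 and 10002 CPM in the cytoplasm and 4871 to 6363 CPM in total RNA, a ratio of 1.72. The ratios were 1.47 for complex II, 1.65 for complex III, 1.69 for complex IV and 1.26 for complex V, and no library of total RNA reached the cytoplasmic level of any complex. In complex I, 28 of 38 tested members were higher, led by Ndufa3, an accessory subunit, with 149 and 125 CPM in the cytoplasm and 24.3, 62.5, 7.69 and 11.9 CPM in total RNA (log2 2.85, SE 0.32, adjusted p = 3.66e-06). Ndufa2 and Ndufb2 rose by 2.26 and 2.22. All 4 genes of complex II were higher, Sdhc and Sdha by 1.06 and 1.01, Sdhb by 0.54 and Sdhd by 0.42. Of these calls, that of Sdhd was lost in 5 alternatives, among them keeping Rn45s, and that of Sdhb in 4, while Sdha was not called against the ligation-based libraries. Complex IV was led by Cox5b, which had 760 and 690 CPM in the cytoplasm and 125 to 184 CPM in total RNA (log2 2.37, SE 0.16, adjusted p = 4.46e-08). In complex V, Atp5g1 had 969 and 800 CPM in the cytoplasm and 170 to 275 CPM in total RNA (log2 2.20, SE 0.19), while Atp5g3, which codes for the same mature protein, differed by 0.17 (SE 0.14, adjusted p = 0.31).

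The 5 members that were lower in the cytoplasm were Ndufa4l2, Cox4i2, Cox7a1, Uqcrc2 and Atp5c1. Ndufa4l2, a hypoxia-inducible paralog of Ndufa4, stood apart from every other member, with 1.94 and 1.48 CPM in the cytoplasm and 189, 200, 183 and 147 CPM in total RNA (log2 -6.57, SE 0.28, adjusted p = 8.73e-10). Cox4i2, also known as oxygen-sensitive, had 4.05 and 2.54 CPM against 23.0, 22.7, 13.2 and 29.2 CPM (log2 -2.57, SE 0.35, adjusted p = 2.35e-05). The ligation-based libraries, which were not cytoplasmic, held as little of both: 2.99 and 1.94 CPM of Ndufa4l2, and 1.78 and 1.08 CPM of Cox4i2. Across all bulk data Ndufa4l2 lay between 45.6 and 206 CPM in the 28 in vitro libraries, between 0 and 17.7 CPM in the 20 cell-based libraries and between 3.2 and 4.0 CPM in the KO libraries. Uqcrc2, a core subunit of complex III, fell by 0.69 and Atp5c1, the central stalk subunit of complex V, by 0.47; Cox7a1 was called lower although its libraries overlapped, and its call was lost in 11 alternatives, among them DESeq2, no filter on low counts and the replicate block. Against the ligation-based libraries instead, 70 members were higher (34.2% of all genes) and 1 was lower (35.02% of all genes), with a median of 2.01 over the members and of -0.00 over all genes. Cox4i2, Atp5c1 and Cox7a1 then had the opposite sign, at 1.58, 0.91 and 0.57. Ndufa4 and Ndufa4l2 moved in opposite directions here (Ndufa4 rose by 1.36). Their coding sequences, of 249 and 264 bases, are shown with the same marking of G and C runs (Ndufa4, chr6:11850535-11857365, - strand; Ndufa4l2, chr10:126952038-126953555, + strand; 4 coding exons each).
Ndufa4: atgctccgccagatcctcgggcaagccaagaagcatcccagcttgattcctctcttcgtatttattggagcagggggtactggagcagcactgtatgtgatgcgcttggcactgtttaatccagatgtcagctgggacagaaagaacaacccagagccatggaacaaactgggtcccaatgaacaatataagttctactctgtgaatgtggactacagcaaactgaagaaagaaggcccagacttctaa
Ndufa4l2: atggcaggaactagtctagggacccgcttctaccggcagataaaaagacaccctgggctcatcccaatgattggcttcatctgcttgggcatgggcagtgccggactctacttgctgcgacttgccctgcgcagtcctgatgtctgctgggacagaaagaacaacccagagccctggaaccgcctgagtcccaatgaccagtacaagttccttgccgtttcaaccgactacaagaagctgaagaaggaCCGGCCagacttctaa

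**Figure D3:**
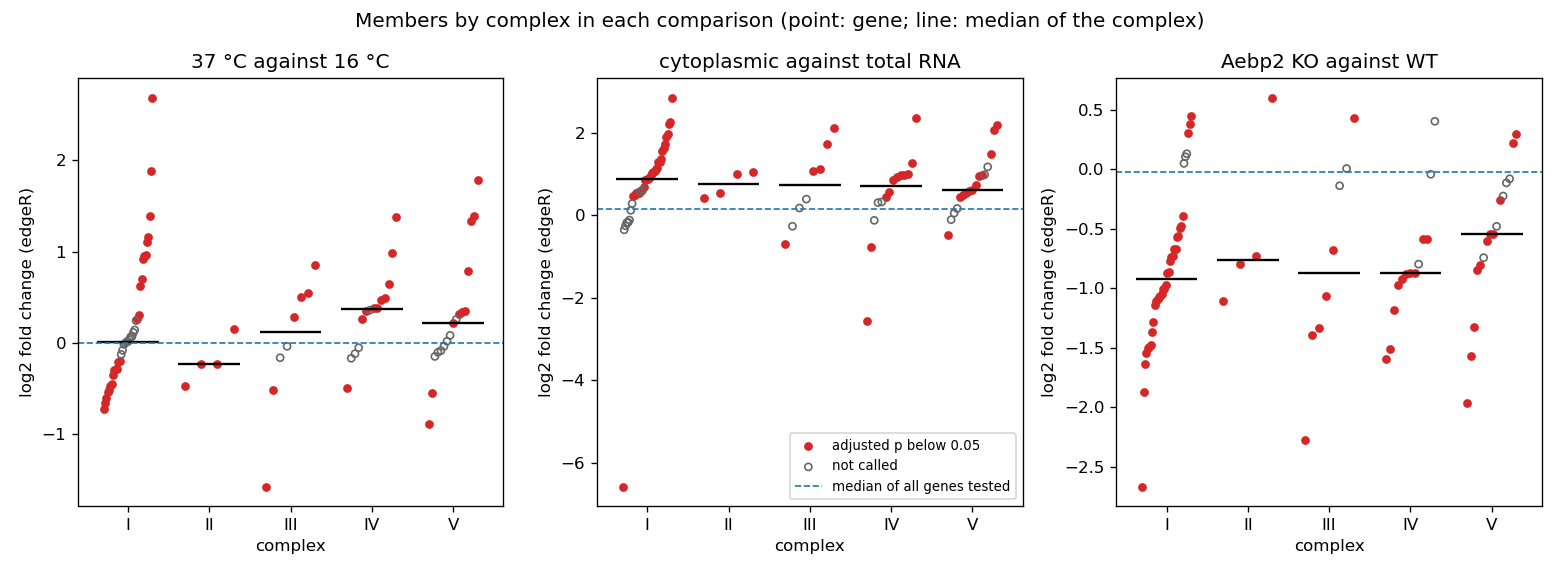
Log2 fold change (edgeR) of each tested member by complex, in 3 comparisons; filled points passed an adjusted p of 0.05, open points did not, solid lines are medians of the complexes and dashed lines the median of all genes tested. Members spread around 0 between temperatures, lie mostly above the median of all genes in cytoplasmic RNA (56 of 81 higher) and mostly below it in Aebp2 KO clones (57 of 77 lower).

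Short transcripts were higher in the cytoplasmic libraries in general: among genes of at most 1000 exon bases, 49.5% of all 826 genes and 36 of 53 members were higher, and among longer genes 30.5% of all genes and 20 of 28 members were. The part of length in the result was not tested. Of other lists, 21 of 37 proteasome subunits and 22 of 42 assembly factors were higher, and 31 of 81 ribosomal protein genes were, while 10 of 15 glycolytic genes were lower.

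In the Aebp2 clones the question was what loss of this PRC2 cofactor does to expression. The labels name no wild type for that experiment, so the H3K27me3 co-assay of 10000 wild-type cells stands in, and genotype and batch cannot be told apart. Aebp2 itself had 65.5 and 76.0 CPM in wild type, 15.7 and 15.0 CPM in KO1 and 49.7 and 30.2 CPM in KO2 (log2 -1.39, SE 0.22, for both clones against wild type). The 10000-cell SET-seq libraries without antibody, also wild type, had 34.5 and 36.4 CPM, which lies within the range of KO2; gene-level counts do not show whether the edited exon is intact.

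Respiratory chain transcripts were lower in the clones in every complex. Of 77 members tested, 57 were lower (74.0%, against 29.5% of the 9523 genes tested) and 7 were higher (9.09%, against 27.8%). The median of the members was -0.80 and that of all genes -0.02. With the study's threshold 28 members were lower (16.2% of all genes) and 0 were higher (13.8%). The summed level of all members was 29093 and 30241 CPM in wild type and 17908 to 19498 CPM in the 4 KO libraries, a ratio of 0.621. Complex IV had the lowest ratio, 0.495, with 5495 and 5852 CPM in wild type and 2487 to 3062 CPM in the clones. Complexes I and III had ratios of 0.5259 and 0.530, complex II 0.724 and complex V 0.788, and none overlapped.

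In complex I 30 of 36 tested members were lower. Ndufa1, an essential X-linked subunit, had 239 and 261 CPM in wild type, 36.3 and 49.2 CPM in KO1 and 23.9 and 35.6 CPM in KO2 (log2 -2.67, SE 0.16, adjusted p = 1.48e-12). Ndufa8 had 111 and 108 CPM in wild type, 17.7 and 19.3 CPM in KO1 and 31.8 and 46.3 CPM in KO2 (log2 -1.87, SE 0.19), and Ndufa2 fell by 1.64. In complex III, Uqcr10, a small subunit beside cytochrome c1, had 946 and 924 CPM in wild type, 204 and 204 CPM in KO1 and 126 and 171 CPM in KO2 (log2 -2.27, SE 0.11, adjusted p = 3.38e-14). These genes were named by a rule that asks for groups without overlap, so the gap between KO and wild-type libraries is no separate result. In complex IV 10 of 13 members fell and 0 rose, with Cox5b and Cox8a at -1.59 and -1.51. In complex V 9 of 16 fell, led by Atp5e with 167 and 153 CPM in wild type and 27.8 to 41.8 CPM in the clones (log2 -1.96, SE 0.17).

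The 7 members that were higher in the clones were Sdha, Ndufv1, Uqcrc2, Ndufc2, Ndufs1, Atp5a1 and Atp5b. Sdha was the clearest of them, with 340 and 320 CPM in wild type, 451 and 410 CPM in KO1 and 503 and 446 CPM in KO2 (log2 0.60, SE 0.11, adjusted p = 4.05e-05), while the other 3 genes of complex II fell: Sdhd by 1.11, Sdhc by 0.79 and Sdhb by 0.73. Ndufv1, the NADH-binding core subunit, rose by 0.44 (SE 0.11). The other 5 were called although their libraries overlapped with wild type, and the number called higher was 2 without wild-type replicate 2 and 4 without replicate 1, with 48 and 55 lower. Against wild type of the 1000-cell co-assay Ndufv1 was at -0.17, and against the SET-seq libraries without antibody at -0.69.

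**Figure D4:**
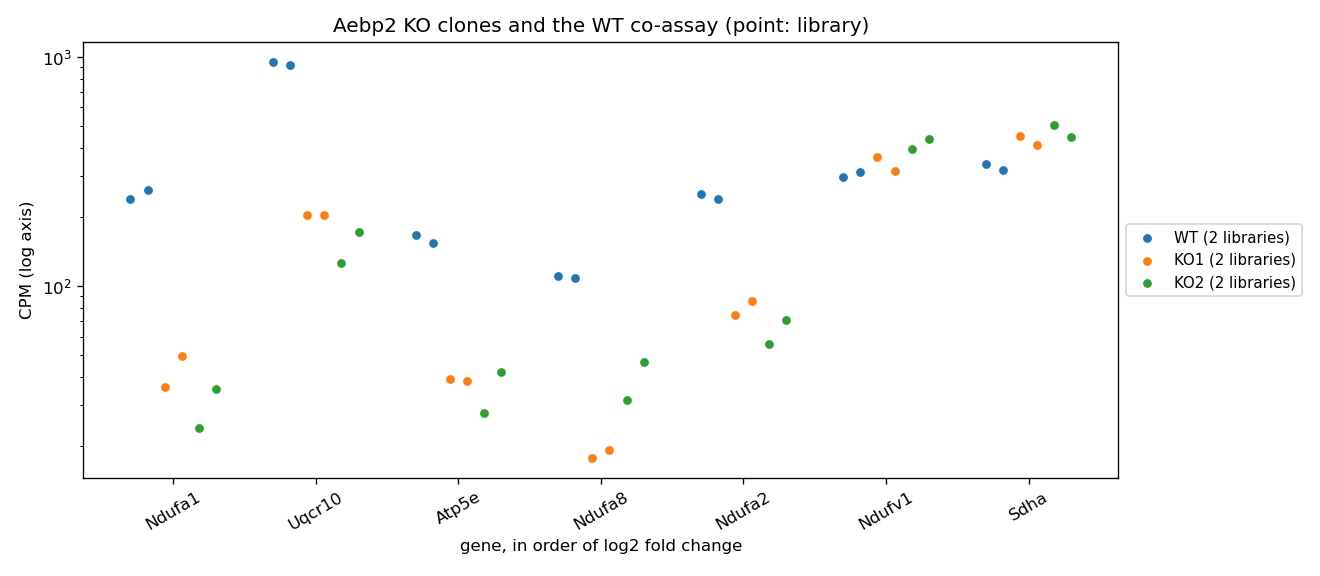
CPM (log axis) of the 7 members that the rule names in the Aebp2 clones, in the 2 wild-type, 2 KO1 and 2 KO2 libraries. The rule takes only genes whose KO and wild-type points do not overlap. All 4 KO points lie below both wild-type points for Ndufa1, Uqcr10, Atp5e, Ndufa8 and Ndufa2, and above them for Ndufv1 and Sdha.

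Transcript length went along with this contrast. Among all 563 tested genes of at most 1000 exon bases, 73.5% were lower in the clones, with a median of -0.98, and 39 of 49 such members were lower; among the 8960 longer genes 26.7% were lower, and 18 of 28 such members were, with 6 higher. The share of Rn45s was 48.8% to 56.7% in the KO libraries and 21.9% to 23.4% in wild type, the KO files were counted with another version of the counting program, and the part of these differences in the result was not tested. Ribosomal protein genes were lower in a like share, 54 of 73 with 1 higher, as were 24 of 38 assembly factors with 1 higher. Of the 36 proteasome subunits 14 were lower and 12 higher, 11 of 15 glycolytic genes were higher and 1 lower, and 5 of 8 regulators of respiratory genes were higher and 0 lower. Of 8 embryonic stem cell markers 4 were lower and 0 higher, with a summed level of 5443 to 5543 CPM in wild type, 3983 to 4059 CPM in KO1 and 3505 to 3596 CPM in KO2. The 4 markers of primed epiblast summed to 52.5 to 59.8 CPM in wild type, where Fgf5 was at 0 in both libraries, to 165 to 185 CPM in KO1 and to 158 to 192 CPM in KO2. The part of these markers in the result was not tested.

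Each clone taken alone gave a similar count. In KO1 56 members were lower (26.9% of all genes) and 4 higher (26.99%), and in KO2 50 were lower (23.7%) and 6 higher (23.9%). In both clones 47 were lower (18.7% of all genes) and 1 was higher (18.8%); the clones share the wild-type libraries. Between the clones, 9 members were higher in KO1 (11.7%, against 5.88% of all genes) and 13 were lower (16.9%, against 5.89%); the study's threshold gave 3 (4.62% of all genes) and 1 (2.35%). Uqcrb, a small subunit of complex III, had 177 and 188 CPM in KO1 and 96.4 and 72.1 CPM in KO2, with 147 and 153 CPM in wild type (log2 1.02, SE 0.18, adjusted p = 0.000516). Ndufb4 had 14.72 and 16.04 CPM in KO1 and 1.99 and 3.56 CPM in KO2 (log2 2.31, SE 0.67, adjusted p = 0.0244). Ndufa8 was lower in KO1 by 1.19 (SE 0.31), with the values given above. These calls rest on few libraries. Leaving out either KO1 library ended most of them, and leaving out KO2 replicate 2 or either wild-type library ended some. The number of calls over all genes fell in each of these cases too. By summed level, complex IV was 3048 and 3062 CPM in KO1 and 2487 and 2634 CPM in KO2, and complex V was the other way, 7588 and 7911 against 8328 and 9072 CPM; complexes I and III overlapped.

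In the single cells, 545 of 752 passed the study's limits of more than 1000 and fewer than 5000 genes, and 77 members were in both matrices. The tables hold reads, not molecules, and the experiments reused a set of 96 cell barcodes: 0 to 64 were shared between any 2 of the 16 experiments. Counts were summed by experiment and position in 14 experiments with at least 3 cells at each position, of 3 to 32 cells a sum. The H3K27me3 experiments 8, 9 and 10 stood apart: sums of 43 to 56 cells of the cluster called Mix there held 6.36 to 114 CPM of complex IV and 2.66 to 10.2 CPM of complex III, so results are given with and without them. A Mix sum of 3 cells in H3K4me3 experiment 1 was as low in both complexes, at 39.9 and 9.54 CPM.

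No member passed the test between proximal and distal cells. With edgeR 0 of 76 members tested and 0 of 12880 genes were called, which is 0% of all genes. At an unadjusted p below 0.05 there were 7 of the 76 members (9.21%) and 1159 of the 12880 genes, a similar share. DESeq2 called 52 genes, of which 0 were members. The standard errors were large, from 0.39 on the log2 scale for Cox4i1 (log2 0.15) to 1.43 for Ndufs3, so that small changes were not detectable in these sums. The smallest p belonged to Ndufa4l2, which had no read in 13 of 14 proximal and 9 of 14 distal sums (adjusted p = 0.281). Next came Ndufb10 (log2 -3.30, SE 1.33, adjusted p = 0.43) and Ndufa12 (log2 2.91, SE 1.23, adjusted p = 0.449). The summed level of all members was higher in proximal cells in 9 of 14 experiments, with a median log2 ratio of 0.09 (-0.19 to 1.75): it was higher in 7 of 9 H3K27me3 and 2 of 5 H3K4me3 experiments. Complex I was higher in proximal cells in 7 of 9 H3K27me3 experiments and in 0 of 5 H3K4me3 experiments, but the interaction of position and antibody called 0 of 76 members and 0% of all genes, with 1 member (1.32%) and 791 genes (6.14%) at an unadjusted p below 0.05, and 43 genes, 0 of them members, by DESeq2. Without the 3 experiments named above, a choice made after seeing the data, 0 of 74 members were called, 2 members and 1023 of 11367 genes had an unadjusted p below 0.05, and the median log2 fold change of the members was -0.04 in place of 0.31, while that of all genes was -0.09 in place of 0.11.

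The study placed the cells that passed in 3 clusters: Mix with 291 cells, Proxi with 133 and Dista with 121. The clusters were made by the study from the expression of these same cells, over genes selected for differing among them, so their differences are given as a description with no test. Summed by experiment, the members took a median of 6752 CPM in Mix (15 sums), 14679 CPM in Proxi (12 sums) and 14031 CPM in Dista (9 sums). Within experiments Mix was below Proxi in 11 of 11 and below Dista in 8 of 9, while Proxi was above Dista in 5 of 9. In the order Mix, Proxi and Dista, complex I had medians of 2518, 4656 and 4346 CPM, complex II 246, 298 and 362 CPM, complex III 491, 1665 and 1522 CPM, complex IV 1093, 2519 and 2089 CPM, and complex V 1466, 4906 and 5277 CPM. These medians pool different experiments, and single complexes varied within them. Paired by experiment, Proxi was above Dista in 3 of 9 for complexes I and II and 2 of 9 for complex III. For complexes IV and V it was above in 6 and 4 of 9. Mix was above Proxi in 2 of 11 experiments for complexes I and III, 4 of 11 for II and IV, and 1 of 11 for V. Atp5b had a median of 482 CPM in Mix, 1020 in Proxi and 1454 in Dista, and Cox4i1 177, 585 and 1192 CPM. Pooled over all cells, depth ran the other way, with a median of 177043 reads a cell in Mix, 115675 in Proxi and 80430 in Dista. Mix was not the deepest within either antibody. By the mean reads a cell of each sum, the medians for Mix, Proxi and Dista were 365647, 483210 and 52728 in H3K27me3 experiments. They were 104090, 94714 and 113343 in H3K4me3 experiments. The part of depth was not tested. Without H3K27me3 experiments 8 to 10 the medians of all members were 6686 CPM in Mix, 10044 CPM in Proxi and 14031 CPM in Dista, and Mix was below Proxi in 10 of 10 experiments. One Proxi sum reached 61152 CPM, from 5 cells of H3K27me3 experiment 8, of which 27929 CPM were complex III.

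**Figure D5:**
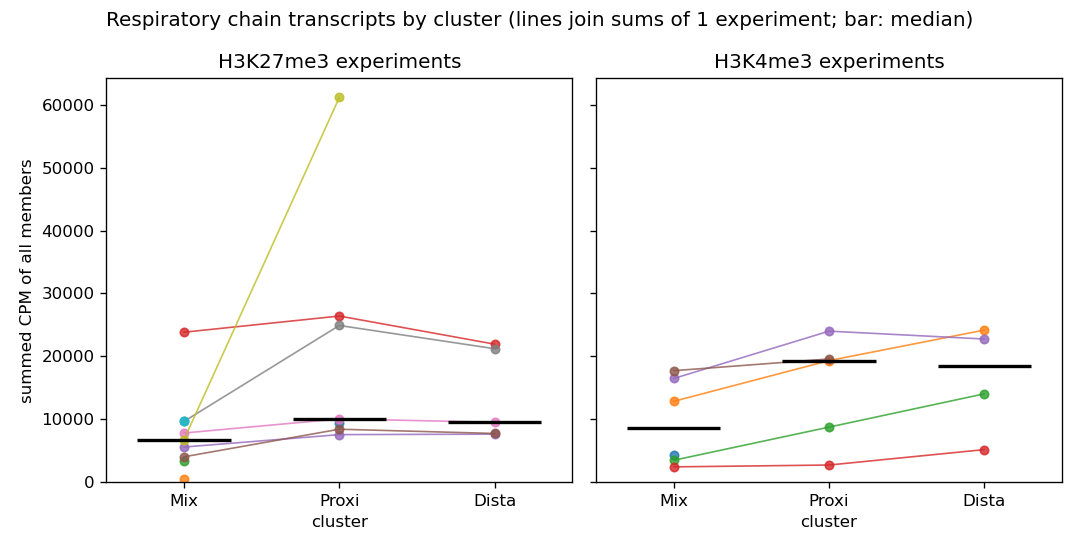
Summed CPM of all members (vertical axis, from 0) by cluster, for H3K27me3 and H3K4me3 experiments; points are sums of at least 3 cells of 1 experiment, lines join the sums of an experiment and bars are medians. Within experiments the Mix point lies below the Proxi point in all 11 pairs, and 1 Proxi sum of an H3K27me3 experiment, at 61152 CPM, stands far above the rest.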

How the data were processed

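Bulk expression was measured in 54 libraries and single-cell expression in 752 cells. The authors trimmed reads, aligned them with STAR 2.5.4b to mm9 without the mitochondrial and random chromosomes, and deposited raw counts per gene (featureCounts 2.0.0, or 2.0.1 for the Aebp2 KO files; mm9 refGene; no strand; reads on several genes or places not counted). For single cells the authors deposited counts of reads, not molecules, from zUMIs 2.7.1c over exons and introns.

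Here members were found by symbol, and Rn45s was removed. CPM and RPKM were computed from these counts. Genes were kept by filterByExpr, scaled by TMM and tested with edgeR 4.0.16 (quasi-likelihood, Benjamini-Hochberg over all genes tested, adjusted p below 0.05; R 4.3.3, limma 3.58.1, DESeq2 1.42.0). SE is the absolute log2 fold change divided by the root of F. The temperature fit used the 16 libraries of both temperatures; single cells with more than 1000 and fewer than 5000 genes were summed by experiment and position, with at least 3 cells a sum and experiment as a term. Cells, positions and clusters follow the study's supplementary table. The code was tested on simulated data. Named genes are, per comparison, up to 5 in each direction with the largest change among members called with groups that did not overlap, the 3 with the smallest p in single cells, the 10 highest by ligation-based RPKM, the Sdh genes and families with tissue isoforms; other members named were chosen after their values were seen. The members and lists were chosen with earlier results of these data known. Total counts per library limit the precision of low genes. The correlation of the deviations of same-numbered libraries ran from -0.16 to 0.29 and was above 0.1 in 4 of 28 pairs of temperature conditions, 1 of 6 in the cytoplasmic comparison and 0 of 3 in the Aebp2 comparison, so not in every pair, and replicate numbers were not taken as pairs. Alternatives were DESeq2, its size factors, no filter, Rn45s included, other controls, the replicate block and leaving out each library; a lone library left in a group is assumed to vary like the others. Promoters came from RefSeq and coding sequences from GENCODE M1. Genomic libraries were not analysed here, and columns of the study's own comparisons were not used.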

Additional observations from a re-analysis of the deposited data

Results flagged for a closer look

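Among 57 groups of 4 to 10 samples examined for a sample far from the others, 5 held one; chance gives about 1 in 20 groups. At 37 °C, replicate 2 of 5 min had the lowest summed level of complex II, 816.7 CPM, where the next library had 925.8 CPM and the highest 974.2 CPM, and the same library had the highest Ndufa5, 62.31 CPM against 45.0 CPM in the next. In single cells, H3K27me3 experiment 1 had a log2 ratio of proximal to distal of -1.882 for complex II, where the next was -0.28. H3K27me3 experiment 8 had a log2 ratio of 11.71 for complex III, where the next was 4.28, and of 5.609 for complex V, where the next was 1.19.

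The effect against wild type differed between the 2 Aebp2 clones, by edgeR's quasi-likelihood test of KO1 against KO2, for the 10 members that the rule names. The estimates against wild type were negative in both clones, KO1 more so, in Ndufa8 (-2.47 and -1.28, a difference of -1.1927, adjusted p = 0.0133), Ndufs3 (-1.27 and -0.28, difference -0.9893, adjusted p = 0.0163), Sdhc (-1.20 and -0.39, difference -0.8046), Uqcrfs1 (-1.06 and -0.30, difference -0.7623) and Ndufb8 (-1.85 and -1.11, difference -0.7433). In KO2 alone against wild type, edgeR's test did not call Uqcrfs1 (adjusted p = 0.106) or Sdhc. KO2 was the lower clone in Ndufa12 (-0.14 in KO1 and -1.31 in KO2, difference 1.1708), Ndufb6 (-0.72 and -1.56, difference 0.8308) and Ndufv3 (-0.43 and -1.03, difference 0.6036). The estimates had opposite signs in Ndufb4 (1.26 in KO1 and -1.05 in KO2, difference 2.3143) and Uqcrb (0.37 and -0.65, difference 1.0181). Calls were lost in 8 alternatives for Ndufv3, 7 for Ndufb4, 4 each for Ndufa12, Ndufb8 and Sdhc and 3 for Ndufs3, in each case under DESeq2 and on leaving out single libraries. Leaving out single libraries also ended the call of Ndufa8 in 3 alternatives and of Uqcrfs1 and Ndufb6 in 1 each, and no alternative ended that of Uqcrb.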

How the results depend on the processing

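The study's threshold gave 10 members between temperatures (9 higher, 1 lower), 29 in cytoplasmic RNA (27 higher, 2 lower), 28 in the Aebp2 clones (0 higher, 28 lower) and 4 between clones (3 higher in KO1, 1 lower). The number lower in cytoplasmic RNA was 1 against ligation-based libraries and 3 among members that share no exon base with another gene, an alternative chosen after seeing the data. The number higher in the Aebp2 clones was 2 with no filter on low counts, 3 against the 1000-cell co-assay, 1 against all 6 H3K27me3 co-assay libraries, 4 in KO1 alone and 4 among members that share no exon base, and leaving out single libraries gave 2 to 7. Between clones DESeq2 called 10 members (5 higher, 5 lower), and leaving out single libraries gave 4 to 22, with 1 to 9 higher and 2 to 16 lower. Members whose sign turned were, against ligation-based libraries, Atp5c1 (0.91), Cox4i2 (1.58), Cox5a (1.26) and Cox7a1 (0.57), and with 1000 cells as the cytoplasmic sample Atp5c1 (0.075) and Cox5a (0.54). In the Aebp2 clones they were Atp5b (-0.33 against the SET-seq libraries without antibody, -0.066 in KO1 alone), Ndufv1 (-0.17 against the 1000-cell co-assay, -0.69 against those SET-seq libraries, -0.024 against all 6) and Uqcrc1 (-0.49 and -1.02 against the first 2 of these). The cause was not tested. With the replicate number as a block, 55 of 80 members were called between temperatures, beside 7479 of 11973 genes. In cytoplasmic RNA 60 of 81 members and 6823 of 12631 genes were. In the Aebp2 clones the block gave 61 of 77 members and 5107 of 9523 genes, and between clones 17 members and 824 genes. Of the other values for single members, 1758 kept direction and side of the threshold, 131 lost the call and 28 gained it. No paired analysis of the cell clusters was run, since they carry no test. Low counts limit Ndufb4, Cox4i2, Ndufa4l2 and most single-cell sums.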
